A study of Mus musculus with 9 samples.

Results

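The chemokine ligands and receptors of the mouse were followed in left ventricle with and without delta-sarcoglycan. Members were the protein-coding genes whose GRCm38 symbol is Ccl, Cxcl, Ccr or Cxcr with a number, together with Cx3cl1, Cx3cr1, Xcl1, Xcr1 and Ackr1 to Ackr4. This gave 66 of the 49671 gene identifiers in the files, with 61 distinct symbols, since some members have copies on unplaced scaffolds. There were 44 ligands, of which 30 were CC and 12 CXC, 18 signalling receptors and 4 atypical receptors. A filter on low counts, described below, left 15261 genes and 39 of the members, namely 26 ligands, 9 receptors and 4 atypical receptors. The symbol rule chose the members and held no measured value, but it was set with earlier results of these data known.

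Polyadenylated RNA of left ventricle was sequenced in 9 libraries of 4 groups. KO ifetroban had 3 libraries from dSG knockout mice given ifetroban, and KO vehicle had 2 libraries from dSG knockout mice given vehicle. WT ifetroban had 2 libraries from wild-type mice given ifetroban, and WT vehicle had 2 libraries from wild-type mice given vehicle. dSG is the short name of delta-sarcoglycan, a membrane protein of the dystrophin complex that muscle and heart fibres need against mechanical strain, and its loss causes a muscular dystrophy with cardiomyopathy. Ifetroban blocks the receptor of thromboxane and related prostanoids. The labels give no strain, age, sex, dose, duration or allele, and none says whether each library is a mouse of its own, so a p-value here reflects only how far these samples lie apart, which can include technical spread.

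Chemokines are small secreted proteins that guide white blood cells along gradients through receptors coupled to G proteins. Inflammatory ligands such as Ccl2 and Cxcl1 are induced at sites of injury and draw monocytes and neutrophils, whereas homeostatic ligands such as Cxcl12 are made in resting tissue. Atypical receptors bind chemokines without the usual G protein signal and remove, transport or store them. In injured heart muscle, the Ccl2 and Ccr2 pair is known for bringing in blood monocytes that become macrophages.

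Gene counts ranged from 21299748 to 31394548 per library. Sgcd, the gene of delta-sarcoglycan, had 9.77, 16.4 and 18.5 CPM (counts scaled to a common library size) in KO ifetroban, 7.49 and 12.1 CPM in KO vehicle, 33.1 and 31.2 CPM in WT ifetroban, and 11.1 and 28.9 CPM in WT vehicle. The library labelled WT vehicle replicate 1 thus lay inside the range of the KO libraries. A count over the whole gene does not show which exons the allele lacks. The libraries also fell into 2 classes by how their counts trended with transcript length, with a Spearman rho of -0.428 to -0.297 in KO ifetroban 1, both KO vehicle libraries and the library labelled WT vehicle replicate 1, and of 0.325 to 0.419 in the other 5. KO vehicle 1 stood apart on the first principal component, which held 53.2% of the variance, and it had 74.3 CPM over 3 liver markers, against 0.238 to 5.98 CPM in the other 8 libraries. The summed markers of ventricular cardiomyocytes, 45025 to 57002 CPM in every library, fitted the labelled tissue. They were lower in KO, at 45025 to 51370 CPM against 54894 to 57002 CPM in WT libraries, without overlap. Atrial cardiomyocyte markers summed to 365 to 1281 CPM in KO and 209 to 281 CPM in WT libraries, also without overlap. For many values that moved by much without KO vehicle 1 or the library labelled WT vehicle replicate 1, the value without that library is given beside it. This was not done for every such value.

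Across all 9 libraries, levels per kilobase of exon differed widely between members. Cxcl12, the homeostatic ligand of Cxcr4, had the highest mean level, 31.3 CPM per kb, and its single libraries ranged from 23.2 to 38.6 CPM per kb. Ackr3, an atypical receptor that takes up Cxcl12, followed at 22.3 CPM per kb, with single libraries from 18.7 to 27.7. The next were the monocyte attractants Ccl2 at 21.8 CPM per kb and Ccl7 at 17.3, with Cxcl14 at 18.8 between them, and Ccl6 at 16.5. These ranks rested on different spreads, since the level of Ccl2 ran from 1.46 to 140.4 CPM per kb over the libraries, so it was not separable from its neighbours in the order. Cxcr4 was the signalling receptor with the highest level, 4.58 CPM per kb and 3.46 to 5.40 over the libraries. Ccr2 had 1.58, Ccr1 1.53 and Cx3cr1 1.15 CPM per kb, values whose ranges over the libraries overlapped. At the low end, Ccl22 had 0.164 and Cxcr5 0.0925 CPM per kb.

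**Figure D1:**
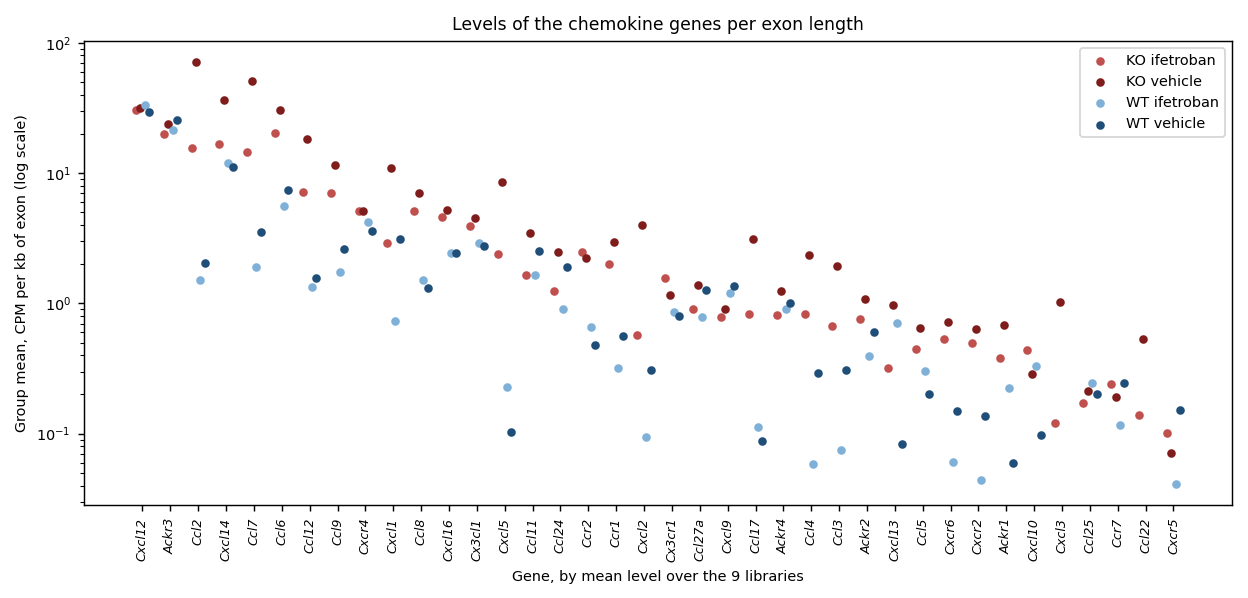
Mean level of 38 of the 39 members that passed the filter, in CPM per kilobase of exon on a log axis, by group and ordered by the mean over the 9 libraries. Cxcl12 at 31.3 and Ackr3 at 22.3 CPM per kb lead with groups close together, while Ccl2, Ccl7 and Cxcl5 spread widely, and group means of 0 (Cxcl3 and Ccl22 in both WT groups) are not drawn.

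Most of the chemokine genes that passed the filter had a higher estimate in KO than in WT ventricle, but no single member passed the test adjusted over all genes. The knockout effect was taken as the mean of the KO to WT log2 fold change under ifetroban and under vehicle. Of the 39 members, 35 had a positive value, against 49.5% of all tested genes, and the median was 1.44 on the log2 scale, against -0.00 over all tested genes. The median was 1.93 for the 26 ligands, 23 of them positive, 1.44 for the 9 receptors, all 9 positive, and 0.49 for the 4 atypical receptors, 3 of them positive. The quasi-likelihood test of edgeR called 0 members at an adjusted p under 0.05, where it called 0.537% of all tested genes. At an unadjusted p under 0.05, 25 members were higher, against 10.6% of all genes, and 1 was lower, against 5.94%. DESeq2, run as the alternative, called 20 members, all higher, against 4.21% of all genes called higher. In 14 members every KO library was above every WT library, against 5.03% of all genes, and in 0 every KO library was below, against 2.28%. Of the 39 members, 13 passed the filter only through KO libraries, namely Ackr1, Ccl3, Ccl4, Ccl5, Ccl17, Ccl22, Ccr7, Cxcl2, Cxcl3, Cxcl5, Cxcl13, Cxcr2 and Cxcr6. The direction of these 13 was partly fixed by the filter, so their fold changes and p-values are descriptions, and the counts and medians describe the members that passed, not the family. The medians of ligands and receptors were not tested against each other. In ventricle RNA, more cells of a type and more RNA per cell cannot be told apart.

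The size of the effect depended on KO vehicle 1. Without it the median knockout effect was 0.85, with 31 of 39 members positive, 20 higher at an unadjusted p under 0.05, against 6.37% of all genes, and 0 called, against 0.210%. Members in which every KO library was above every WT library again numbered 14, where all genes gave 5.35%. Without KO vehicle 2 instead, the median was 1.69 and edgeR called 23 members, while 13.1% of all genes were called. Without the library labelled WT vehicle replicate 1, the median was 1.76 and 21 members did not overlap, against 9.61% of all genes. Within the libraries with low counts of long transcripts, 32 of 39 members were higher in the mean of 3 KO libraries than in the 1 WT library, with a median difference of 1.13 on the log2 scale. Within the other class, 30 of 39 were higher in 2 KO than in 3 WT libraries, with a median of 0.46. In each class 24 members had every KO library above every WT library, against 26.7% and 16.6% of all genes.

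**Figure D2:**
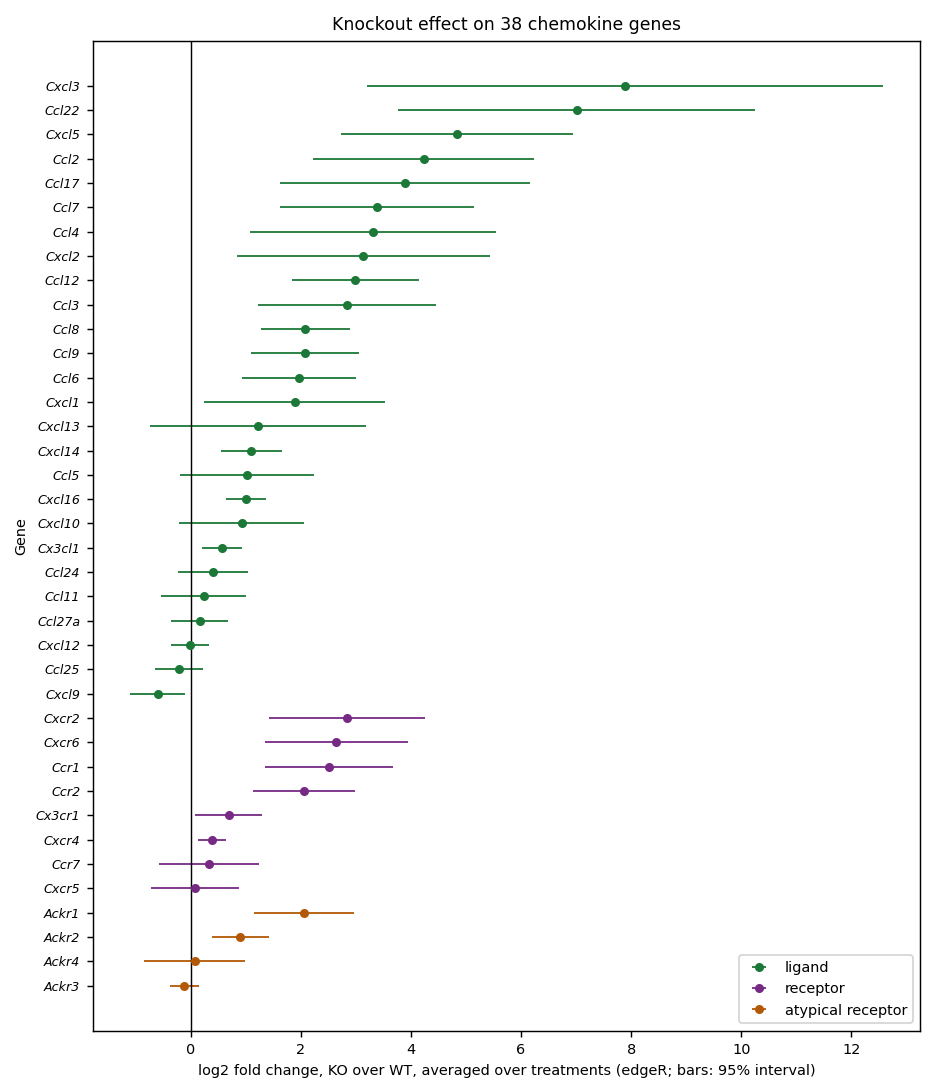
Log2 fold change of KO over WT averaged over treatments for 38 of the 39 members that passed the filter, by role, with bars for the 95% interval. Values lie right of 0 for 23 of 26 ligands, all 8 receptors drawn and 3 of 4 atypical receptors, with wide bars for Cxcl3 and Ccl22, which had no count in any WT library.

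Among the CC ligands, those that attract monocytes are given first. Ccl2, the main ligand of Ccr2, had 35.0, 13.1 and 4.65 CPM in KO ifetroban, 159.7 and 2.98 CPM in KO vehicle, 1.80 and 1.66 CPM in WT ifetroban, and 2.62 and 2.05 CPM in WT vehicle. All 5 KO libraries were above all 4 WT libraries, and KO vehicle 2 was above the highest WT library by a small margin. The averaged log2 fold change was 4.23 ± 1.03 (SE, edgeR adjusted p = 0.0963), and it was 1.85 without KO vehicle 1. Ccl12, a mouse relative of Ccl2 that also binds Ccr2, had 5.61, 4.23 and 1.78 CPM in KO ifetroban, 16.6 and 3.14 CPM in KO vehicle, 0.959 and 0.475 CPM in WT ifetroban, and 1.23 and 0.464 CPM in WT vehicle. Again no KO library overlapped a WT library, and the value was 2.99 ± 0.59 (adjusted p = 0.0607), or 2.17 without KO vehicle 1. Ccl8, which attracts monocytes and T cells, had KO libraries closer together than those of Ccl2 and Ccl12, at 1.78, 2.33 and 3.76 CPM in KO ifetroban and 3.82 and 3.34 CPM in KO vehicle. Ccl8 had 1.27 and 0.277 CPM in WT ifetroban and 0.770 and 0.580 CPM in WT vehicle, without overlap. Its averaged value was 2.08 ± 0.41 (adjusted p = 0.0607) and hardly moved without KO vehicle 1, at 2.03.

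Ccl9, a Ccr1 ligand of rodents, had 34.4, 14.7 and 15.3 CPM in KO ifetroban, 59.2 and 10.6 CPM in KO vehicle, 6.21 and 4.36 CPM in WT ifetroban, and 10.5 and 5.41 CPM in WT vehicle. KO vehicle 2 and the library labelled WT vehicle replicate 1 were almost level. The averaged log2 fold change of Ccl9 was 2.08 ± 0.50 (adjusted p = 0.0927), and 1.22 without KO vehicle 1. Ccl22, which attracts T cells through Ccr4, had 0.234, 0.706 and 0.0388 CPM in KO ifetroban, 2.14 and 0.318 CPM in KO vehicle, and no count in the 4 WT libraries. Set against a floor of 3 counts over the 4 WT libraries together, the mean of the KO libraries was at least 22.1-fold higher, and at least 10.4-fold higher without KO vehicle 1, bounds that cover counting error only. Ccl5, an attractant typical of T cells and platelets, had 0.608, 0.368 and 0.310 CPM in KO ifetroban, 0.837 and 0.397 CPM in KO vehicle, 0.307 and 0.277 CPM in WT ifetroban, and 0 and 0.386 CPM in WT vehicle. These ranges overlapped, and the averaged value was 1.03 ± 0.62 (adjusted p = 0.421). Ccl24, an eosinophil attractant that binds Ccr3, averaged 0.41 ± 0.32 and was -0.01 without KO vehicle 1. The other CC ligands that passed were Ccl3, Ccl4, Ccl6, Ccl7, Ccl11, Ccl17, Ccl25 and Ccl27a, whose averaged values ran between -0.20 for Ccl25 and 3.90 for Ccl17. DESeq2 called 5 of these 8 higher, against 4.21% of all genes. They were Ccl3, Ccl4, Ccl6, Ccl7 and Ccl17, and they are named after their values were seen. KO vehicle 1 was the highest library for all 5, and Ccl3, Ccl4 and Ccl17 passed the filter only through KO libraries.

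**Figure D3:**
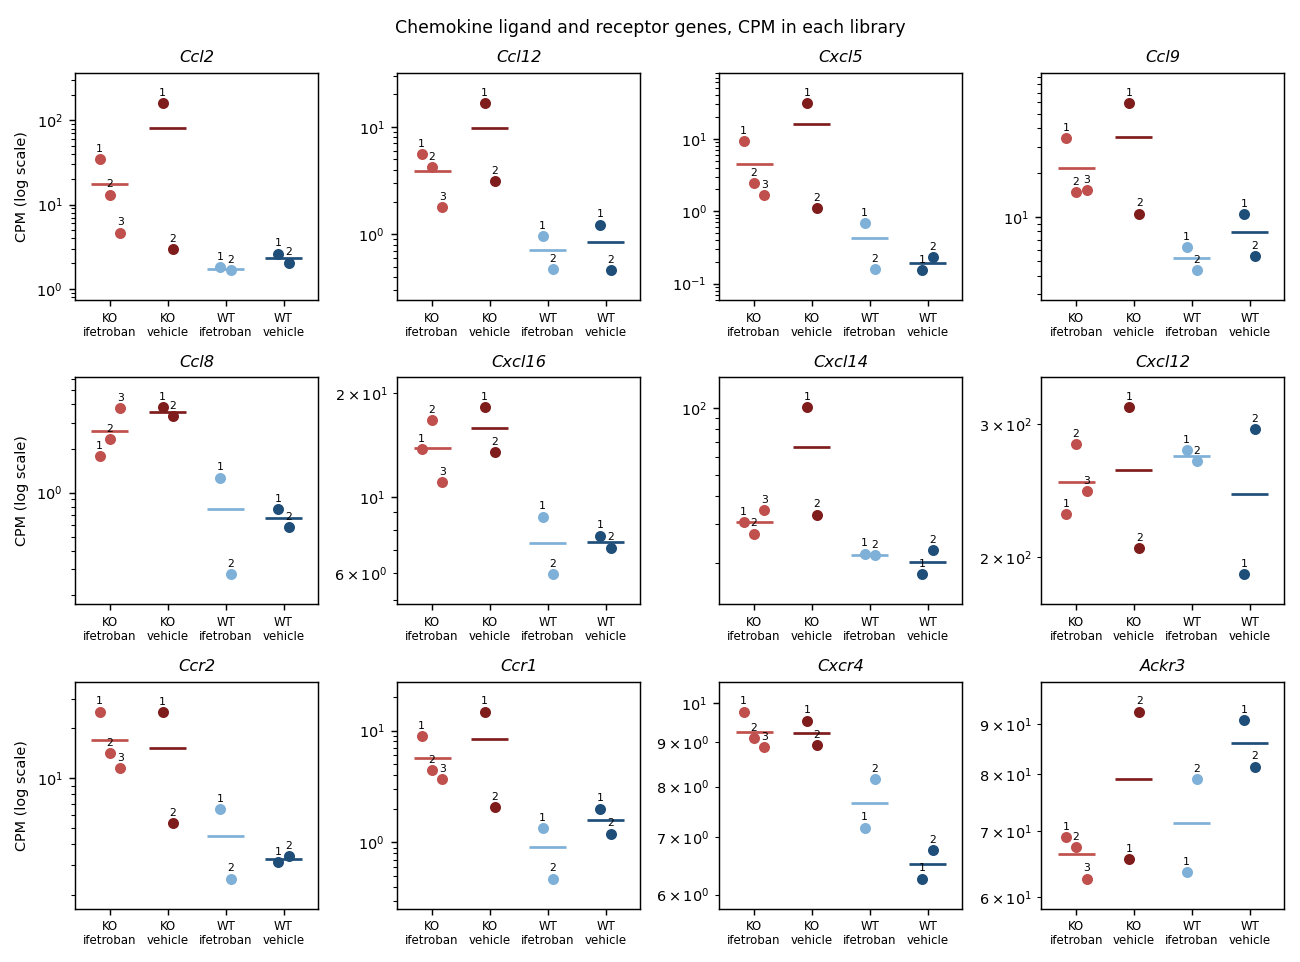
CPM of 12 members in each library on log axes, with group means as lines and replicate numbers above the points. For Ccl2, KO vehicle 1 sits at 159.7 CPM and KO vehicle 2 at 2.98 CPM, while for Cxcl16 all 5 KO libraries lie between 11.1 and 18.2 CPM, above the 4 WT libraries at 5.94 to 8.74 CPM.

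The CXC ligands that draw neutrophils through Cxcr2 lie together on chromosome 5. Their upstream sequences are shown because Cxcl1, Cxcl2 and Cxcl3 were highest in the same 2 libraries and share a run of bases. The runs below are 160 bases upstream of the RefSeq start in build GRCm38.p6, written 5′ to 3′ on the gene's strand, with matches to the NF-kappaB consensus in capitals. They are Cxcl1 at chr5:90891085-90891244 on the plus strand, Cxcl2 at chr5:90903739-90903898 on the plus strand, Cxcl3 at chr5:90785941-90786100 on the plus strand and Cxcl10 at chr5:92348890-92349049 on the minus strand. Ccl12 at chr11:82101685-82101844 and Ccl8 at chr11:82115025-82115184, both on the plus strand, are given as ligands of the other cluster.
Cxcl1: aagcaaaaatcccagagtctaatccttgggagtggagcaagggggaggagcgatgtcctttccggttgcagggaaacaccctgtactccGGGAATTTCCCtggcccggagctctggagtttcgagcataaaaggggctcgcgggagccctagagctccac
Cxcl2: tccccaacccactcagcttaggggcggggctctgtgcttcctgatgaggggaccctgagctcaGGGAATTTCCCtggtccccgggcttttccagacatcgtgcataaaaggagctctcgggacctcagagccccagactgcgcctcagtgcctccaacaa
Cxcl3: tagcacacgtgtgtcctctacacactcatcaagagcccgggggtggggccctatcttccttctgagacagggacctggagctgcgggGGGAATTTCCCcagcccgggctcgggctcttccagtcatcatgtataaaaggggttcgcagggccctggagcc
Cxcl10: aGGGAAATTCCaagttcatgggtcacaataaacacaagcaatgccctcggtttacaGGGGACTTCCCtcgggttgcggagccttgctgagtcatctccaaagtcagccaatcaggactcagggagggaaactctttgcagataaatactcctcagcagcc
Ccl12: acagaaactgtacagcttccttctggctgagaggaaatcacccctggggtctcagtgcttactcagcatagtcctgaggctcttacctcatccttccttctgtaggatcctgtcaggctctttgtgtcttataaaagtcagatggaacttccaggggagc
Ccl8: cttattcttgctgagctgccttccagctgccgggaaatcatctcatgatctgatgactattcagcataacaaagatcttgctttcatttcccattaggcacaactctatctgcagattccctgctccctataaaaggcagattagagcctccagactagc

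Cxcl1, Cxcl2 and Cxcl3 each held the same 11 bases, GGGAATTTCCC, which read alike on both strands apart from the middle base and hold overlapping matches to the consensus. RefSeq windows of 300 bases, from 250 before to 50 after the start, matched 28 members by symbol. Members without a window, among them Ccl2, Ccl7, Cxcl5 and Cxcl16, were not searched. Of the 28, 3 held GGGAATTTCCC, against 0.0518% of 27025 genes. The 11 bases were read from the window of Cxcl1, so its match was fixed in advance and this share is a description, not a test. The NF-kappaB consensus, searched on both strands, was in 8 of 28 members, or 28.6%, against 9.55% of genes. The 8 were Ackr2, Ccl9, Ccl27a, Ccr1, Cxcl1, Cxcl2, Cxcl3 and Cxcl10. TATAAA was in 39.3% of the members and 15.7% of genes, TGANTCA (AP-1) in 14.3% and 8.97%, GAAA and GAAA spaced by 2 bases (an interferon response element) in 7.14% and 3.99%, and TTCNNNGAA (a STAT element) in 7.14% and 9.55%. These 3 CXC ligands are close paralogs, so a shared run is not independent evidence from each, and a match describes letters, not a bound site.

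Of these ligands, Cxcl1 had 11.2, 2.73 and 2.33 CPM in KO ifetroban, 38.6 and 2.42 CPM in KO vehicle, 1.46 and 1.31 CPM in WT ifetroban, and 10.01 and 1.66 CPM in WT vehicle. The library labelled WT vehicle replicate 1 was above 3 of the 5 KO libraries. The averaged log2 fold change of Cxcl1 was 1.89 ± 0.84 (adjusted p = 0.302), with 0.35 when KO vehicle 1 was left out. Cxcl2, its neighbour, had 2.66, 0.706 and 0.194 CPM in KO ifetroban, 16.2 and 0.238 CPM in KO vehicle, 0.230 and 0.158 CPM in WT ifetroban, and 1.13 and 0.155 CPM in WT vehicle. Its groups overlapped in the same way. Cxcl5, a neutrophil attractant of epithelial and stromal cells, had 9.35, 2.42 and 1.67 CPM in KO ifetroban, 31.0 and 1.11 CPM in KO vehicle, 0.690 and 0.158 CPM in WT ifetroban, and 0.154 and 0.232 CPM in WT vehicle. It differed from Cxcl1 and Cxcl2 in that all KO libraries were above all WT libraries. The averaged value was 4.83 ± 1.07 (adjusted p = 0.0787), and 2.91 without KO vehicle 1. Cxcl3 had no count in any WT library and its KO mean was at least 54.0-fold above the floor of 3 counts over those libraries, or at least 10.5-fold without KO vehicle 1. Its KO libraries ran from 0.0397 CPM in KO vehicle 2, near the floor of 0.0310 CPM, to 7.07 CPM in KO vehicle 1. Their median was 0.153 CPM. Cxcl2, Cxcl3 and Cxcl5 passed the filter only through KO libraries, so their direction was partly fixed by it.

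The remaining CXC ligands and Cx3cl1 differed in how far KO vehicle 1 set their values. Cxcl16, a membrane-bound ligand of Cxcr6, had the smallest p of all members, with 13.8, 16.7 and 11.1 CPM in KO ifetroban, 18.2 and 13.5 CPM in KO vehicle, 8.74 and 5.94 CPM in WT ifetroban, and 7.70 and 7.11 CPM in WT vehicle. No KO library overlapped a WT library, and the averaged log2 fold change was 1.01 ± 0.18 (adjusted p = 0.0553), with 0.89 without KO vehicle 1. DESeq2 called Cxcl16 higher (adjusted p = 0.000188). Cxcl14, a ligand of fibroblasts and epithelia without a settled receptor, had 30.5, 27.1 and 34.5 CPM in KO ifetroban, 100.4 and 33.0 CPM in KO vehicle, 22.0 and 21.6 CPM in WT ifetroban, and 17.8 and 22.8 CPM in WT vehicle. It too had every KO library above every WT library, at 1.10 ± 0.28 (adjusted p = 0.106), or 0.60 without KO vehicle 1. Cx3cl1, the membrane-bound ligand of Cx3cr1 made by endothelium, had 13.5, 17.1 and 15.4 CPM in KO ifetroban, 21.4 and 14.3 CPM in KO vehicle, 9.63 and 13.1 CPM in WT ifetroban, and 8.93 and 12.8 CPM in WT vehicle. The gap between the lowest KO and the highest WT library was small, and the value was 0.57 ± 0.18 (adjusted p = 0.185).

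Cxcl12 gave another picture, with 228, 282 and 244 CPM in KO ifetroban, 316 and 205 CPM in KO vehicle, 277 and 268 CPM in WT ifetroban, and 189.6 and 296 CPM in WT vehicle. Its groups overlapped throughout and the averaged value was -0.01 ± 0.17, with a 95% interval of -0.35 to 0.34. Cxcl9, an interferon-induced ligand of Cxcr3, was the member with the lowest averaged value, -0.60 ± 0.25 (adjusted p = 0.283), from 2.48, 1.93 and 2.68 CPM in KO ifetroban, 1.91 and 3.57 CPM in KO vehicle, 3.64 and 3.61 CPM in WT ifetroban, and 3.03 and 5.14 CPM in WT vehicle. Only KO vehicle 2 reached the WT range. Cxcl10, induced by interferon as well, had 1.12, 1.44 and 0.388 CPM in KO ifetroban, 0.977 and 0.318 CPM in KO vehicle, 0.844 and 0.634 CPM in WT ifetroban, and 0.0513 and 0.386 CPM in WT vehicle, so its groups overlapped. Its averaged value was 0.93, and 0.43 without KO vehicle 1. Cxcl13, which guides B cells through Cxcr5, had 0.467, 0.522 and 0.116 CPM in KO ifetroban, 2.09 and 0.159 CPM in KO vehicle, 1.53 and 0.0792 CPM in WT ifetroban, and 0.154 and 0.0386 CPM in WT vehicle. One library of KO vehicle and one of WT ifetroban stood above the rest.

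All 9 signalling receptors that passed the filter had a positive averaged value, and none passed the test over all genes. Among them Ccr7, Cxcr2 and Cxcr6 passed the filter only through KO libraries, so their direction was partly fixed by it. Ccr2, the monocyte receptor of Ccl2, had 25.1, 14.1 and 11.4 CPM in KO ifetroban, 24.8 and 5.36 CPM in KO vehicle, 6.48 and 2.496 CPM in WT ifetroban, and 3.13 and 3.40 CPM in WT vehicle. Only KO vehicle 2 lay below a WT library, and the averaged value was 2.05 ± 0.47 (adjusted p = 0.0842), or 1.31 without KO vehicle 1. Ccr1, which binds Ccl3, Ccl5 and Ccl9, had 8.98, 4.42 and 3.68 CPM in KO ifetroban, 14.7 and 2.06 CPM in KO vehicle, 1.34 and 0.475 CPM in WT ifetroban, and 2.002 and 1.20 CPM in WT vehicle. These did not overlap, with the lowest KO and the highest WT library nearly level, and the value was 2.51 ± 0.59 (adjusted p = 0.0893), or 1.51 without KO vehicle 1.

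Cxcr2, the neutrophil receptor of Cxcl1 to Cxcl3 and Cxcl5, had 3.09, 0.890 and 0.582 CPM in KO ifetroban, 2.84 and 1.07 CPM in KO vehicle, 0.192 and 0.0792 CPM in WT ifetroban, and 0.719 and 0.116 CPM in WT vehicle. The library labelled WT vehicle replicate 1 was above KO ifetroban 3, and the averaged value was 2.84 ± 0.72 (adjusted p = 0.107), with 2.42 without KO vehicle 1 and 3.69 without that WT library. Cxcr6, the receptor of Cxcl16 on T cells, had 2.01, 0.675 and 0.388 CPM in KO ifetroban, 2.23 and 0.556 CPM in KO vehicle, 0.153 and 0.0792 CPM in WT ifetroban, and 0.308 and 0.270 CPM in WT vehicle. All KO libraries were above all WT libraries, at 2.65 ± 0.67 (adjusted p = 0.105) and 1.99 without KO vehicle 1. Cxcr4, the receptor of Cxcl12, had 9.77, 9.11 and 8.88 CPM in KO ifetroban, 9.54 and 8.93 CPM in KO vehicle, 7.17 and 8.16 CPM in WT ifetroban, and 6.26 and 6.76 CPM in WT vehicle. Its KO libraries were the most alike of any receptor named here, none overlapped a WT library, and the small difference was 0.39 ± 0.13 (adjusted p = 0.197).

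Cx3cr1, which marks resident macrophages and some monocytes, had 6.92, 8.07 and 6.05 CPM in KO ifetroban, 7.07 and 3.41 CPM in KO vehicle, 3.72 and 4.002 CPM in WT ifetroban, and 1.90 and 5.33 CPM in WT vehicle. The libraries overlapped through KO vehicle 2, and the value was 0.69 ± 0.31 (adjusted p = 0.311), with 0.38 without KO vehicle 1 and 0.40 without the library labelled WT vehicle replicate 1. Ccr7, which brings lymphocytes and dendritic cells to lymph nodes, had 0.33 ± 0.46, and Cxcr5, the follicle receptor of B cells, had 0.08 ± 0.41 (adjusted p = 0.742 and 0.937), both from under 1 CPM in every library. The value of Ccr7 was -0.11 without KO vehicle 1.

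The 4 atypical receptors did not move alike. Ackr1, which binds many inflammatory chemokines on red cells and venules, had 0.795, 0.337 and 0.465 CPM in KO ifetroban, 1.21 and 0.715 CPM in KO vehicle, 0.268 and 0.357 CPM in WT ifetroban, and 0.0513 and 0.116 CPM in WT vehicle. KO ifetroban 2 lay just below WT ifetroban 2, and the averaged value was 2.06 ± 0.46 (adjusted p = 0.0787). Ackr2, a scavenger of inflammatory CC ligands, had 1.87, 2.58 and 2.68 CPM in KO ifetroban, 3.68 and 3.14 CPM in KO vehicle, 1.38 and 1.11 CPM in WT ifetroban, and 2.52 and 1.24 CPM in WT vehicle. The library labelled WT vehicle replicate 1 reached into the KO range, and the value was 0.90 ± 0.26 (adjusted p = 0.153). Ackr3 had 69.0, 67.5 and 62.7 CPM in KO ifetroban, 65.6 and 92.6 CPM in KO vehicle, 63.6 and 79.1 CPM in WT ifetroban, and 90.8 and 81.5 CPM in WT vehicle. Its groups overlapped, with -0.11 ± 0.14 and a 95% interval of -0.38 to 0.15. Ackr4, which removes Ccl19, Ccl21 and Ccl25, had 4.02, 2.24 and 6.94 CPM in KO ifetroban, 2.09 and 11.3 CPM in KO vehicle, 5.37 and 4.40 CPM in WT ifetroban, and 6.98 and 3.94 CPM in WT vehicle. Both ends of its range were KO vehicle libraries.

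Many members lie together in the genome, and signs within these clusters stand against 89.7% positive over all 39 members. The CC ligand cluster at chr11:82035571-83664683 holds 11 members, of which 10 passed, all 10 positive in the averaged effect with a median of 2.46. Within it Ccl11, an eosinophil attractant between Ccl7 and Ccl12, had only 0.24 ± 0.40. The CXC ligand stretch at chr5:90759360-95961068 holds 8 members, 7 passed, 6 were positive, the median was 1.89, and Cxcl9 at -0.60 lies beside Cxcl10 at 0.93. The receptor cluster at chr9:123678439-124147699 holds 7 members, of which 4 passed, among them Cxcr6, Ccr1 and Ccr2 with 2.05 to 2.65. On chromosome 8, Cx3cl1 at 0.57 lies between Ccl22 and Ccl17, both of which passed the filter only through KO libraries. So did Ccl3, Ccl4 and Ccl5 on chromosome 11, Cxcl2, Cxcl3, Cxcl5 and Cxcl13 on chromosome 5, and Cxcr6 on chromosome 9. The filter thus partly fixed the signs and medians within these clusters. Gene positions are those of GENCODE on GRCm38.

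**Figure D4:**
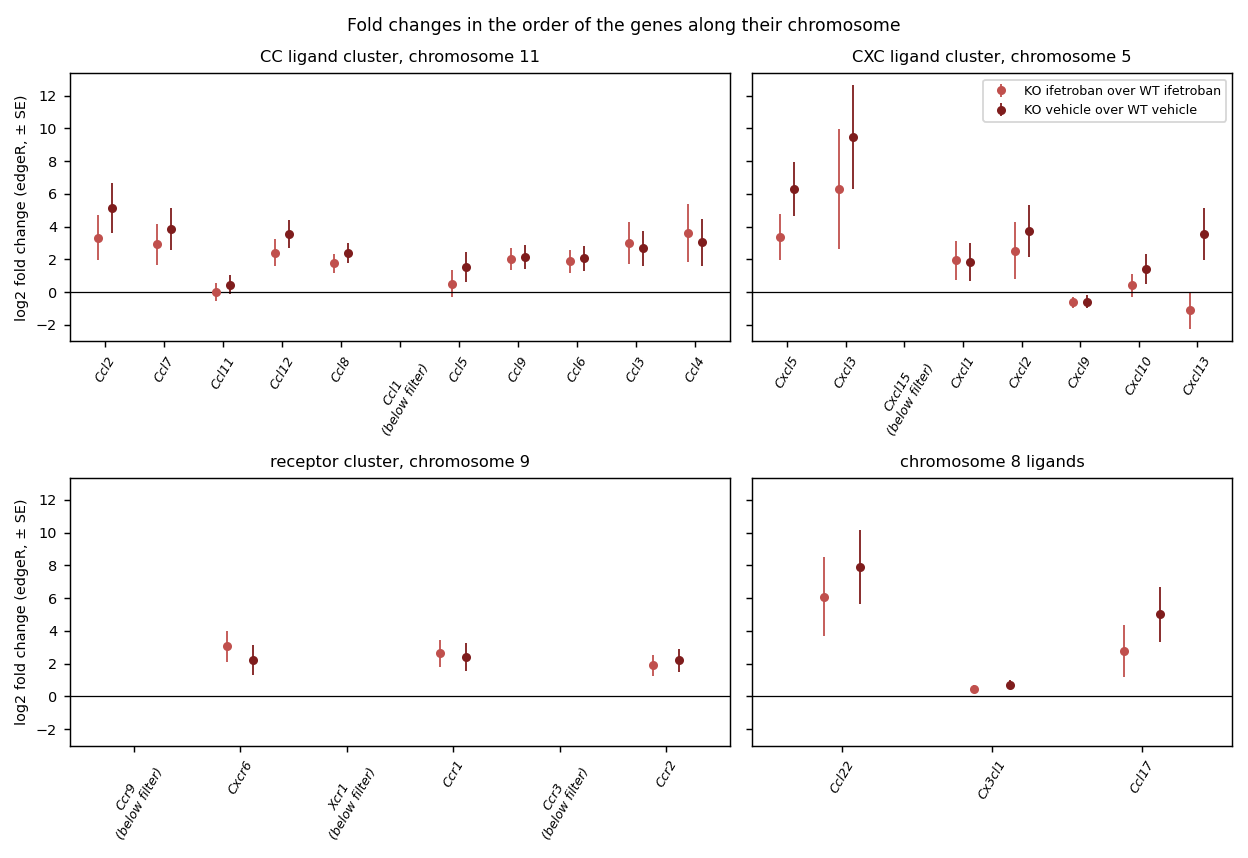
Log2 fold change of KO over WT, with standard errors, under ifetroban and under vehicle for members in their order along 4 chromosomal clusters, with 1 member of the chromosome 9 cluster not drawn. In the chromosome 11 cluster all 10 members that passed are at or above 0 under both treatments, and on chromosome 5 Cxcl9 is below 0 under both while Cxcl13 differs in sign between treatments.

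Under each treatment on its own the knockout effect was again mostly positive. Between KO ifetroban and WT ifetroban, 33 of 39 members were positive, against 51.8% of all genes, with a median of 1.19, and edgeR called 0 members against 0.0131% of all genes. There, 16 members were higher at an unadjusted p under 0.05, against 3.85%, DESeq2 called 0 members against 0.419% called higher, and 26 members had no overlap on the high side, against 16.1%, and 2 on the low side, against 12.9%. None of these libraries is KO vehicle 1, but the count of 16 rested on WT ifetroban 2: it was 0, against 1.48% of all genes, without that library, and 10 to 21 without any other single library, the lowest without KO ifetroban 1. The median was 0.99 without WT ifetroban 2 and 1.80 without WT ifetroban 1. Cxcr2 was at 3.41 ± 1.06 in this contrast, Cxcl5 at 3.36 ± 1.38 and Ccl2 at 3.33 ± 1.39, the first with an adjusted p of 0.740 and the others with 0.979. Cxcr2 and Cxcl5 are among the 13 members that passed the filter only through KO libraries. The filter thus partly fixed the counts and medians of members under each treatment. Between KO vehicle and WT vehicle, 35 of 39 members were positive, against 48.5% of all genes, with a median of 1.83, and edgeR called 0 members against 0.0524% of all genes. In that contrast 24 were higher at an unadjusted p under 0.05, against 8.26%, DESeq2 called 10 against 2.13% of all genes called higher, and 22 did not overlap on the high side, against 16.8%, with 1 on the low side, against 18.2%. Without KO vehicle 1 the vehicle median was 0.44, 29 members were positive and 5 were higher at an unadjusted p under 0.05, against 2.87% of all genes. Ccl2 shows the size of this dependence, with 5.13 in the vehicle contrast and 0.36 without KO vehicle 1.

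Ifetroban against vehicle changed no member past the test in either genotype. In knockouts, 33 of 39 members were lower in KO ifetroban than in KO vehicle with a median of -0.59, and 6 were positive, against 47.6% of all genes. There edgeR called 0 members against 0% of all genes, and DESeq2 0 against 0.0131% called higher. At an unadjusted p under 0.05, 0 members were higher and 2 lower, against 2.59% and 2.42% of all genes, and without overlap 0 were higher and 4 lower, against 8.38% and 7.58%. The sign rested on KO vehicle 1: without it the median was 0.32 and 27 of 39 members were positive, and Ccl2 was at 2.55 instead of -2.21 ± 1.12. Cxcl14 had the smallest p, at -1.12 ± 0.36 (adjusted p = 0.688), and was at -0.10 without KO vehicle 1. Ccl24, with 1.78, 1.41 and 1.63 CPM in KO ifetroban and 4.65 and 1.79 CPM in KO vehicle, had -1.0 ± 0.42, and -0.16 without that library. Cxcl2 had -2.82 ± 1.27, and 2.26 without it.

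In wild type, 15 of 39 members were higher, against 47.2% of all genes, and 22 lower in WT ifetroban than in WT vehicle, with a median of -0.18, and edgeR called 0 members against 0% of all genes, as did DESeq2. At an unadjusted p under 0.05, 1 was higher and 1 lower, against 0.315% and 0.944% of all genes, and 4 and 10 did not overlap, against 14.9% and 16.5%. Cxcr5 had 0.115 and 0.158 CPM in WT ifetroban against 0.513 and 0.502 CPM in WT vehicle, a log2 fold change of -1.86 ± 0.64 (adjusted p = 0.999), the one member lower at that threshold. Besides the WT vehicle libraries, only 1 KO library reached the filter cutoff for Cxcr5, so Cxcr5 passed only through WT vehicle. Its direction here and in the interaction below was thus partly fixed by the filter. Ackr1 was the one higher, at 1.78 ± 0.78 (adjusted p = 0.999). Ccl24 had 0.805 and 1.55 CPM in WT ifetroban against 2.26 and 2.67 CPM in WT vehicle, at -1.07 ± 0.49. The test of the difference between the ifetroban effects in KO and WT called 0 members against 0% of all genes, by edgeR and by DESeq2, with 13 of 39 positive, against 53.7%, and 1 higher and 2 lower at an unadjusted p under 0.05, against 0.740% and 0.642%. The 3 with the smallest p were Ackr1 at -2.65 ± 0.93, Cxcr5 at 2.33 ± 0.86 and Cxcl13 at -4.67 ± 1.95, each with an adjusted p of 0.9998. When the library labelled WT vehicle replicate 1 was left out, 7 of 39 members were positive, with a median of -0.59. The balance of signs over the members rested on KO vehicle 1: without it 27 of 39 members were positive, the median was 0.49 instead of -0.28, 3 were higher at an unadjusted p under 0.05, against 1.27% of all genes, and 0 lower, and Cxcl13 was at -1.91.

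Library by library, KO vehicle 1 held the highest value of 27 of the 39 members, against 26.9% of all genes. In 17 members KO vehicle 1 was first and KO ifetroban 1 second, an order found in 10.8% of all genes, and these included Ccl2, Ccl7, Ccl12, Cxcl1, Cxcl2, Cxcl3, Cxcl5 and Ccr1. Summed over all ligands, the libraries overlapped, at 325 to 992 CPM in KO and 288 to 373 CPM in WT libraries. Summed over the ligands other than Cxcl12, the level was 259, 149 and 128 CPM in KO ifetroban, 676 and 120 CPM in KO vehicle, 82.0 and 68.2 CPM in WT ifetroban, and 98.6 and 77.5 CPM in WT vehicle. Without Cxcl12 every KO library had a higher sum than every WT library, and KO vehicle 2 came closest to the library labelled WT vehicle replicate 1. The receptor sum was 68.8, 48.9 and 40.5 CPM in KO ifetroban, 81.7 and 30.3 CPM in KO vehicle, 25.7 and 19.1 CPM in WT ifetroban, and 19.8 and 23.5 CPM in WT vehicle, also without overlap. The atypical receptors gave no such separation, with 72.5 to 108 CPM in KO and 70.6 to 100.3 CPM in WT libraries.

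Markers of white blood cells did not all move alike between KO and WT libraries. The 12 macrophage and monocyte markers summed to 583 to 806 CPM in KO and 279 to 402 CPM in WT libraries, without overlap. Of these 12, 11 were positive in the averaged effect, 1 was called by edgeR against 0.537% of all genes and 10 by DESeq2 against 4.21% called higher, with 0 by edgeR without KO vehicle 1. Against the WT mean, the marker sum of single KO libraries was 1.68 to 2.33 times as high, that of Cxcl16 1.499 to 2.47 times and Ccl2 1.46 to 78.6 times. The 7 neutrophil markers summed to 4.85 to 15.7 CPM in KO and 1.03 to 7.70 CPM in WT libraries, 4 passed the filter, all 4 were positive, 1 was called by edgeR (0 without KO vehicle 1) and 4 by DESeq2. Of the defining markers, Camp had no count in any KO library, and Ly6g and Ngp were at 0.0467 CPM or less in every KO library. T cell markers summed to 1.87 to 2.56 CPM in KO and 1.03 to 2.90 CPM in WT libraries, and B cell markers to 2.79 to 5.15 and 2.54 to 3.94 CPM. Dendritic cell markers summed to 1.51 to 9.35 CPM in KO and 0.411 to 1.93 CPM in WT libraries. Natural killer markers, of which 1 of 5 passed the filter, summed to 0.608 to 1.26 and 0.257 to 0.541 CPM. Mast cell and eosinophil markers summed to 6.23 to 9.05 CPM in KO and 5.75 to 9.32 CPM in WT libraries. Platelet markers, highest in KO vehicle 1, summed to 13.6 to 50.7 CPM in KO and 8.24 to 20.9 CPM in WT libraries. The part of these cells in the chemokine values was not tested.

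**Figure D5:**
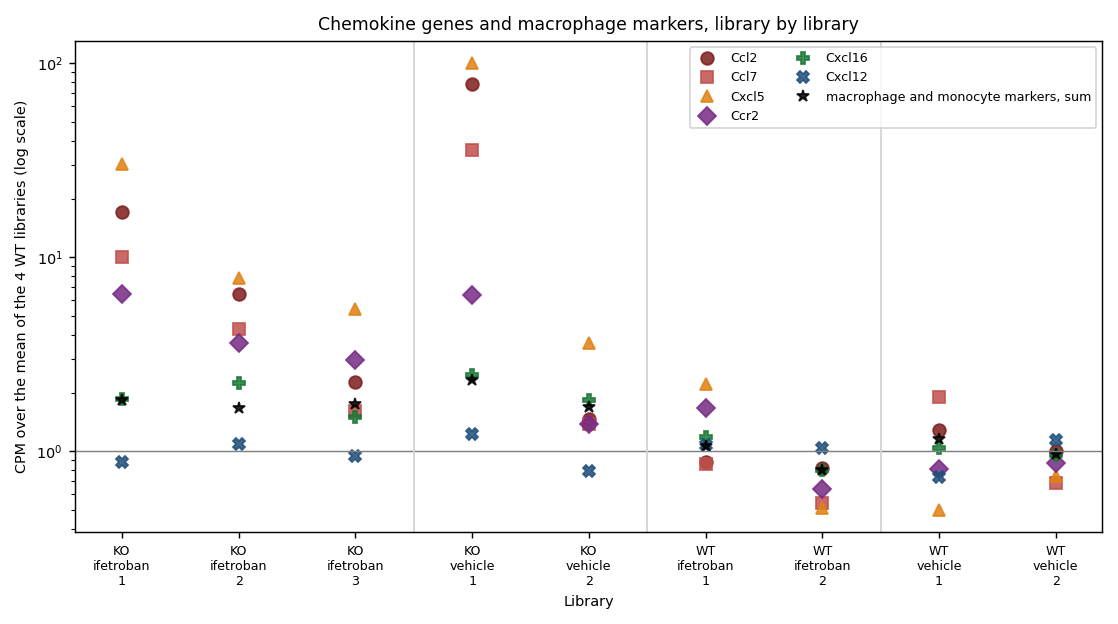
CPM of 6 members and the summed macrophage and monocyte markers in each library, relative to the mean of the 4 WT libraries, on a log axis. The marker sum stays between 1.68 and 2.33 in the KO libraries, Ccl2 runs from 1.46 in KO vehicle 2 to 78.6 in KO vehicle 1, and Cxcl12 stays between 0.797 and 1.23.

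Genes around the chemokines were described with 2 lists. Of 35 listed genes of chemokine signalling, 33 were found by symbol. All 33 passed the filter, 30 of them positive in the averaged knockout effect with a median of 0.34. Among them edgeR called Fgr, a Src family kinase of myeloid cells, which rose by 3.80 ± 0.68 on the log2 scale (adjusted p = 0.0486), and 15 were higher at an unadjusted p under 0.05, against 10.6% of all genes. DESeq2 called 7, against 4.21% of all genes called higher. Without KO vehicle 1, Fgr was at 2.73 (adjusted p = 0.0708), and without the library labelled WT vehicle replicate 1 at 3.74 (adjusted p = 0.179), so the call ended in both. Next by p were Arrb2 at 0.84 ± 0.16 (a beta-arrestin that takes receptors off the membrane), Rac2 at 1.11 ± 0.24 (a small GTPase of blood cells) and Vav1 at 1.26 ± 0.28 (its exchange factor), with adjusted p between 0.0580 and 0.0776. Of 28 inducers of chemokines, 26 passed, 24 were positive with a median of 0.67, 0 were called by edgeR, 14 were higher at an unadjusted p under 0.05 and 8 were called by DESeq2, against the same shares of all genes. Without KO vehicle 1 the median of the inducers was 0.26, and 8 were higher at an unadjusted p under 0.05, against 6.37% of all genes. The smallest p belonged to Tlr2 at 1.26 ± 0.24, Tnfrsf1b at 0.85 ± 0.19, Il1b at 4.25 ± 1.01 and Il17ra at 1.28 ± 0.32, a pattern receptor, a TNF receptor, a cytokine and a cytokine receptor. In that order, they were at 0.99, 0.58, 2.62 and 0.71 without KO vehicle 1.

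The other 27 members did not pass the filter. Of these, 12 had no count in any library, among them Ccl20, Ccl21a, Ccl21b, Cxcl15 and the 7 members on unplaced scaffolds. Reads that align to several places are not counted by the method used, so the near-identical Ccl19, Ccl21 and Ccl27 copies can be at 0 or low for that reason and are not measured here. The remaining 15 held at most 58 counts over the 9 libraries, the most for Ccl19, with 47 counts in the KO and 11 in the WT libraries. The T cell receptor Cxcr3, which binds Cxcl9 and Cxcl10, had 17 counts in the KO and 10 in the WT libraries, and Xcr1, a marker of cross-presenting dendritic cells, had 29 and 20. These members were not tested.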

How the data were processed

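Polyadenylated RNA of mouse left ventricle was measured in 9 libraries, grouped by the sample titles, which also give the replicate numbers. The authors deposited raw read counts per gene, whole numbers without normalization, in 3 count columns per library, for both strands together and for each strand. STAR 2.5.2b, HTSeq and build GRCm38 are named, per the submitters' processing notes; the annotation release is not given in the sources used here. The layout of the deposited counts is that of STAR, which leaves out reads with several alignments. Gene identifiers were matched to GENCODE annotation of GRCm38 (49412 of 49671), which gave symbols, positions and exon lengths. The reverse-strand column, with 14.5 times the counts of the forward column, was used. The 4 rows naming no gene held 26.6% to 31.9% of reads and stayed out. No column belonged to a sample outside the series.

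Counts were tested with edgeR 4.0.16 in R 4.3.3 (quasi-likelihood F test, TMM normalization, filterByExpr with a cutoff of 0.401 CPM in at least 2 libraries, 1 coefficient per group, all 9 libraries in 1 fit). The 6 comparisons were KO against WT under each treatment, ifetroban against vehicle in each genotype, the knockout effect averaged over treatments, and the interaction. Tests were two-sided with Benjamini-Hochberg adjustment over 15261 genes, with calls at an adjusted p under 0.05. Log2 fold changes carry a prior count of 0.125, and standard errors were calculated back from the F statistic. CPM are counts divided by the TMM library size and scaled to a common total, and only values per kilobase of exon compare genes. Replicates were compared before averaging: chi-square per degree of freedom was 14.4 to 88.9 for the 6 pairs within groups, so none was a second copy. The fit was tested on simulated data. Differences within a class of length trend are on log2(CPM + 0.5). DESeq2 1.42.0, another normalization, no filter, the unstranded column, only the compared groups, a replicate block, a term for the length class and leaving out libraries were the alternatives. Sequences are from RefSeq (GRCm38.p6).

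Members and gene lists were chosen with earlier results of these data known, and summaries over the members under the alternatives and over the gene lists without single libraries were added after their values were seen. Values in every library are given for the 8 ligands and 6 receptors with the smallest p in the averaged effect, the 3 with the smallest p in each ifetroban comparison and the interaction, and a list of well-known members, with the 4 smallest p of each pathway list. The separate values of 1 member that this rule names are not reported here, while counts and medians over the members include it. Other members are given by range, or marked as named after their values were seen. Depth limits precision: a floor of 3 counts over the 4 WT libraries equals 0.0310 CPM.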

Additional observations from a re-analysis of the deposited data

How the results depend on the processing

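Of the 55 fold changes described, none that was called lost its call, since edgeR called none of them, and 20 of 903 values under the alternatives had the opposite sign. Another normalization and the unstranded column left the side of the threshold and the sign of all 55 as they were. Counts of calls moved more. DESeq2 called 373 genes and 10 chemokine genes in KO vehicle against WT vehicle, 69 genes in KO ifetroban against WT ifetroban, 3 genes in KO ifetroban against KO vehicle, and 754 genes and 20 chemokine genes in the averaged knockout effect, against 8, 2, 0 and 82 genes by edgeR. Without the low-count filter, edgeR called 1195 genes and 23 chemokine genes in KO vehicle against WT vehicle, 428 and 19 in KO ifetroban against WT ifetroban, 428 and 8 in KO ifetroban against KO vehicle, 34 and 1 in WT ifetroban against WT vehicle, 1684 and 25 in the averaged effect, and 73 and 3 in the interaction. That fit pooled the spread fully over 27246 genes, with infinite prior degrees of freedom against 4.65 with the filter. With only the compared groups, 5 genes were called in the vehicle contrast and 12 in the ifetroban contrast of KO against WT. Adding the length class as a term gave 1, 1 and 9 genes in the vehicle, ifetroban and averaged contrasts. Without KO vehicle 1 and the library labelled WT vehicle replicate 1 together, the counts were 2, 14 and 25.

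The labels give no shared litter, batch or day behind the replicate numbers, and deviations of same-numbered libraries from their group means had correlations of -0.0109 to 0.586 over 6 pairs of groups, 3 of them under 0.1. With the replicate block, edgeR called 45 genes and 1 chemokine gene in the vehicle contrast, and 531 genes and 18 chemokine genes in the averaged effect.

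Leaving out 1 library at a time gave 1 to 1734 genes and 0 to 17 chemokine genes in the vehicle contrast, 1 to 8 genes and 0 chemokine genes in the ifetroban contrast, 0 to 449 genes and 0 to 2 chemokine genes in KO ifetroban against KO vehicle, and 2 to 2098 genes and 0 to 23 chemokine genes in the averaged effect. The upper ends came without KO vehicle 2, which leaves KO vehicle 1 as the lone library of its group, assumed to vary like the other groups. Signs turned for few members. The averaged value of Cxcl12 was 0.0093 with the replicate block, 0.17 with the length class term and between -0.18 and 0.16 when 1 library was left out. Ackr4 had -0.18 with the block, -0.016 with the length class term and -0.77 to 0.45 when 1 library was left out. Ackr3 had 0.044 without both of those libraries and -0.25 to 0.0019 without 1. Ccr7 ran from -0.11 to 0.63 and Ccl24 from -0.0086 to 0.68, with -0.062 for Ccl24 without both. In KO ifetroban against KO vehicle, Cxcl2 was 2.26 and Ccl2 2.55 without KO vehicle 1, with and without the library labelled WT vehicle replicate 1, and over single libraries left out Cxcl2 ran from -4.13 to 2.26 and Ccl2 from -3.19 to 2.55. The cause was not tested.

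Groups of 2 or 3 libraries limit every comparison, and genes under about 1 CPM rest on few reads.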

Other observations

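Chemokine genes whose symbols fall outside the rule were also measured. Pf4, the platelet chemokine Cxcl4, had 20.5, 11.04 and 13.4 CPM in KO ifetroban, 31.5 and 16.7 CPM in KO vehicle, 10.1 and 7.29 CPM in WT ifetroban, and 14.5 and 8.46 CPM in WT vehicle, with an averaged log2 fold change of 0.93 ± 0.27 (edgeR adjusted p = 0.154). Ppbp, another platelet chemokine, had 2.48, 0.828 and 0.737 CPM in KO ifetroban, 8.70 and 0.397 CPM in KO vehicle, 0.422 and 0.396 CPM in WT ifetroban, and 3.08 and 0.270 CPM in WT vehicle, with KO vehicle 1 and the library labelled WT vehicle replicate 1 highest. Ccrl2, a non-signalling receptor of chemerin, had 6.84 to 12.4 CPM in KO and 10.5 to 18.2 CPM in WT libraries, with -0.31 ± 0.22 (adjusted p = 0.480). Cxcl11, which the annotation lists as a polymorphic pseudogene, had 1 count in 1 KO library and 1 count in 1 WT library.

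Timp1, an inhibitor of matrix proteases named after its values were seen, had 96.8, 31.9 and 21.2 CPM in KO ifetroban, 337 and 10.1 CPM in KO vehicle, 3.07 and 0.911 CPM in WT ifetroban, and 3.18 and 1.35 CPM in WT vehicle. Its KO libraries stood in the same order as those of Ccl2, at 5.46 ± 1.03 (adjusted p = 0.0580).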
